A study of Xenopus tropicalis with 2 samples.

Results

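The 5 genes described here encode the transcription factors Msgn1, Tbx6, Mespb, Myf5 and Myod1. They were chosen by symbol, 5 of 21821 genes measured, as factors of the paraxial mesoderm and of the start of muscle formation. The RNA of single nuclei was sequenced from whole wild-type Xenopus tropicalis embryos of stage 10.5, the early gastrula, for which the labels name no transgene, mutation or drug. The nuclei came from 1 pool of embryos and were barcoded by the Parse method, in which fixed nuclei pick up their barcode in successive rounds of wells. The 2 samples, sublibraries 1 and 2, were split from that pool, so they are technical replicates of 1 group and carry no measure of the spread between embryos. Values are therefore compared between sets of nuclei within the pool, with no test. Intervals are exact 95% Poisson intervals for counts and exact 95% binomial (Clopper-Pearson) intervals for shares, and they cover counting error only. Those of counts, and of ratios of counts, treat each count as a separate draw, although 1 nucleus can give several. They leave out the spread between nuclei and can be too narrow, most of all for genes with many counts.

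Paraxial mesoderm is the tissue on both sides of the notochord that divides into somites and gives rise to most skeletal muscle. It descends from the marginal zone of the gastrula, where FGF and Wnt signals keep the T-box gene tbxt (brachyury) on. Msgn1, a bHLH factor, and Tbx6, a T-box factor, drive cells from this tbxt-positive state into presomitic mesoderm. Mespb, another bHLH factor, acts later, where somite boundaries are set. Myf5 and Myod1 are the bHLH factors that commit cells to muscle, and in Xenopus both are known to come on in mesoderm during gastrulation, well before somites form.

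Nuclei were the 8474 barcodes with at least 1500 genes, 4245 of sublibrary 1 and 4229 of sublibrary 2, of 215209 barcodes in all. They held 51545496 UMIs (unique molecular identifiers, 1 per captured transcript), with a median of 4658.5 UMIs per nucleus. Among their 8268 well combinations, 206 occurred in both sublibraries. Neither sublibrary stood apart in its number of nuclei or in depth.

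The members fell into 3 that were readily counted and 2 that were close to absent from the counts. In all nuclei, myf5 had 680 UMIs in 460 nuclei, tbx6 had 290 UMIs in 213 nuclei and msgn1 had 80 UMIs in 65 nuclei. By contrast, myod1 had 4 UMIs in 4 nuclei and mespb had 1 UMI in 1 nucleus. At this depth a nucleus rarely gave more than 1 molecule of a member: at least 2 UMIs were found in 143 nuclei for myf5, 44 for tbx6 and 9 for msgn1, with maxima of 6, 9 and 5.

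The gene myf5 (XBXT10g004562, chromosome 3, 52543905 to 52547076 in UCB_Xtro_10.0) had 339 UMIs in sublibrary 1 and 341 in sublibrary 2, or 13.2 CPM (UMIs per 1000000 UMIs of the same nuclei) in each. Its UMIs were found in 5.43% of nuclei (interval 4.96 to 5.93). The gene tbx6 (XBXT10g003121, chromosome 9, 2433789 to 2442498) had 154 and 136 UMIs in the sublibraries, which gave 5.98 and 5.27 CPM and 2.51% of nuclei (2.19 to 2.87). The gene msgn1 (XBXT10g014217, chromosome 5, 141934598 to 141935533) had 44 and 36 UMIs, which gave 1.71 and 1.40 CPM and 0.767% of nuclei (0.592 to 0.977). The order of these counts, myf5 over tbx6 over msgn1, was the same in both sublibraries. Per kilobase of RefSeq gene span the order changed: myf5 had 214 UMIs, msgn1 85.5 and tbx6 33.3.

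The 2 rare members need a word on what was counted. The gene myod1 (XBXT10g002534, chromosome 4, 902672 to 903295), the master switch of muscle fate, has a RefSeq span of only 624 bases. Whether the gene model used for counting is longer is not known, so a low count need not mean little RNA. The 4 UMIs of myod1 were 3 in sublibrary 1 and 1 in sublibrary 2, or 0.0776 CPM (0.0211 to 0.199). All 4 of its nuclei also had tbxt, 3 had myf5 and 1 had tbx6. The gene mespb (XBXT10g015695, chromosome 3, 108949673 to 108951681) had its single UMI in sublibrary 1, in a nucleus with UMIs of tbxt, wnt8a, chrd.1 and hhex. The sources used here do not state how reads shared by mespb and its relative mespa, which had 116 UMIs, were assigned, so both counts are uncertain. No ratio was computed for myod1 or mespb.

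**Figure D1:**
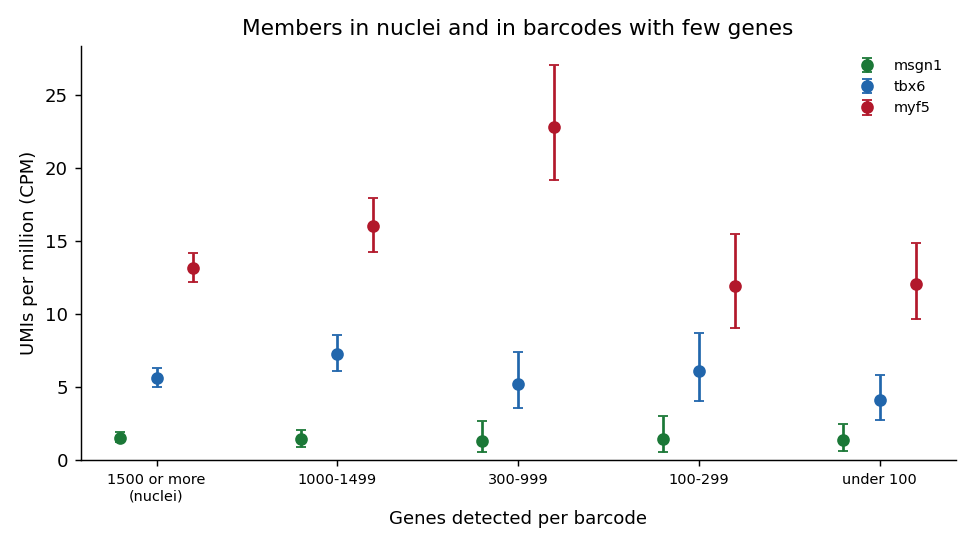
CPM of msgn1, tbx6 and myf5 (y axis) in nuclei, at the left, and in barcodes with fewer genes (x axis), with exact 95% Poisson intervals. The genes keep their order in every class of barcode, and myf5 had 13.2 CPM in nuclei and 22.8 CPM in barcodes with at least 300 and under 1000 genes.

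Barcodes with few genes can hold RNA free of nuclei or remnants of nuclei, and they carried the members too. In nuclei myf5 had 13.2 CPM (12.2 to 14.2), against 15.6 CPM (13.8 to 17.5) in barcodes with under 1000 genes, among which those with at least 300 genes stood higher, at 22.8 CPM (19.2 to 27.0). For tbx6 the levels were 5.63 CPM in nuclei and 5.01 CPM in those barcodes, and for msgn1 they were 1.55 and 1.39 CPM. A UMI in a nucleus can thus come from free RNA. The share of nuclei with a UMI was read against ectoderm-like nuclei, which should lack these genes: 14 of 4128 had myf5 (0.339%), 7 had tbx6 (0.170%) and 1 had msgn1 (0.0242%), with a median depth of 4361 UMIs there and 4511 UMIs in mesoderm-like nuclei.

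The first question was whether the members were on in nuclei with a tbxt UMI, asked without any clustering. Such a UMI was found in 46.6% of all nuclei and in 16.1% of ectoderm-like nuclei, so this gate is not confined to the marginal zone. Nearly all UMIs of the members were in nuclei with tbxt. Of the nuclei with myf5, 448 of 460 had a tbxt UMI (97.4%), as did 192 of 213 with tbx6 (90.1%) and 62 of 65 with msgn1 (95.4%), whereas among nuclei without these genes the shares with tbxt were 43.7%, 45.5% and 46.3%. The level of myf5 was 23.1 CPM in the 3953 nuclei with tbxt, against 0.530 CPM in the 4521 nuclei with none, a 43.6-fold ratio (24.8 to 84.9). For msgn1 the levels were 2.63 CPM with tbxt and 0.177 CPM without, a 14.9-fold ratio (5.59 to 56.1) that rests on 4 UMIs in nuclei without tbxt. For tbx6 they were 9.31 CPM with tbxt and 0.927 CPM without, a 10.0-fold ratio (6.44 to 16.5). As log2 of (CPM + 1), the differences were 3.98 ± 0.23 for myf5, 1.63 ± 0.044 for msgn1 and 2.42 ± 0.27 for tbx6 (SD over 2 sublibraries). The median depth was 4998 UMIs in nuclei with tbxt and 4432 UMIs in nuclei without, and the part of depth in the ratios was not tested.

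After removal of nuclei with a high doublet score (a score for 2 nuclei read as 1), 7681 nuclei fell into 15 clusters, built without the 5 members. Clusters were named from marker lists. Cluster 2 (760 nuclei) and cluster 10 (509 nuclei) were dorsal mesoderm-like and cluster 6 (624 nuclei) was ventral mesoderm-like, while cluster 8 (556 nuclei) was dorsal endoderm-like and cluster 12 (313 nuclei) ventral endoderm-like. The names are coarse. The genes leading cluster 2 by fold included myf5 itself. Cluster 2 had both chrd.1, a dorsal BMP inhibitor, in 54.9% of its nuclei and wnt8a, a Wnt ligand of the ventral and lateral margin, in 53.4%. Cluster 8 was led by cdh12, tgm2, foxp2, hhex and frzb2 and also had tbxt in 58.1% of its nuclei, against 16.1% of ectoderm-like nuclei. Cluster 12, though named ventral, had chrd.1 in 53.4% of its nuclei, at 2708 CPM, and tbxt in 75.1%. All 7 mesoderm markers were raised in it over other nuclei, against 4 of 7 in cluster 6. Cluster 13 (276 nuclei) had a high median doublet score and a median of 9336.5 UMIs and was left unnamed.

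**Figure D2:**
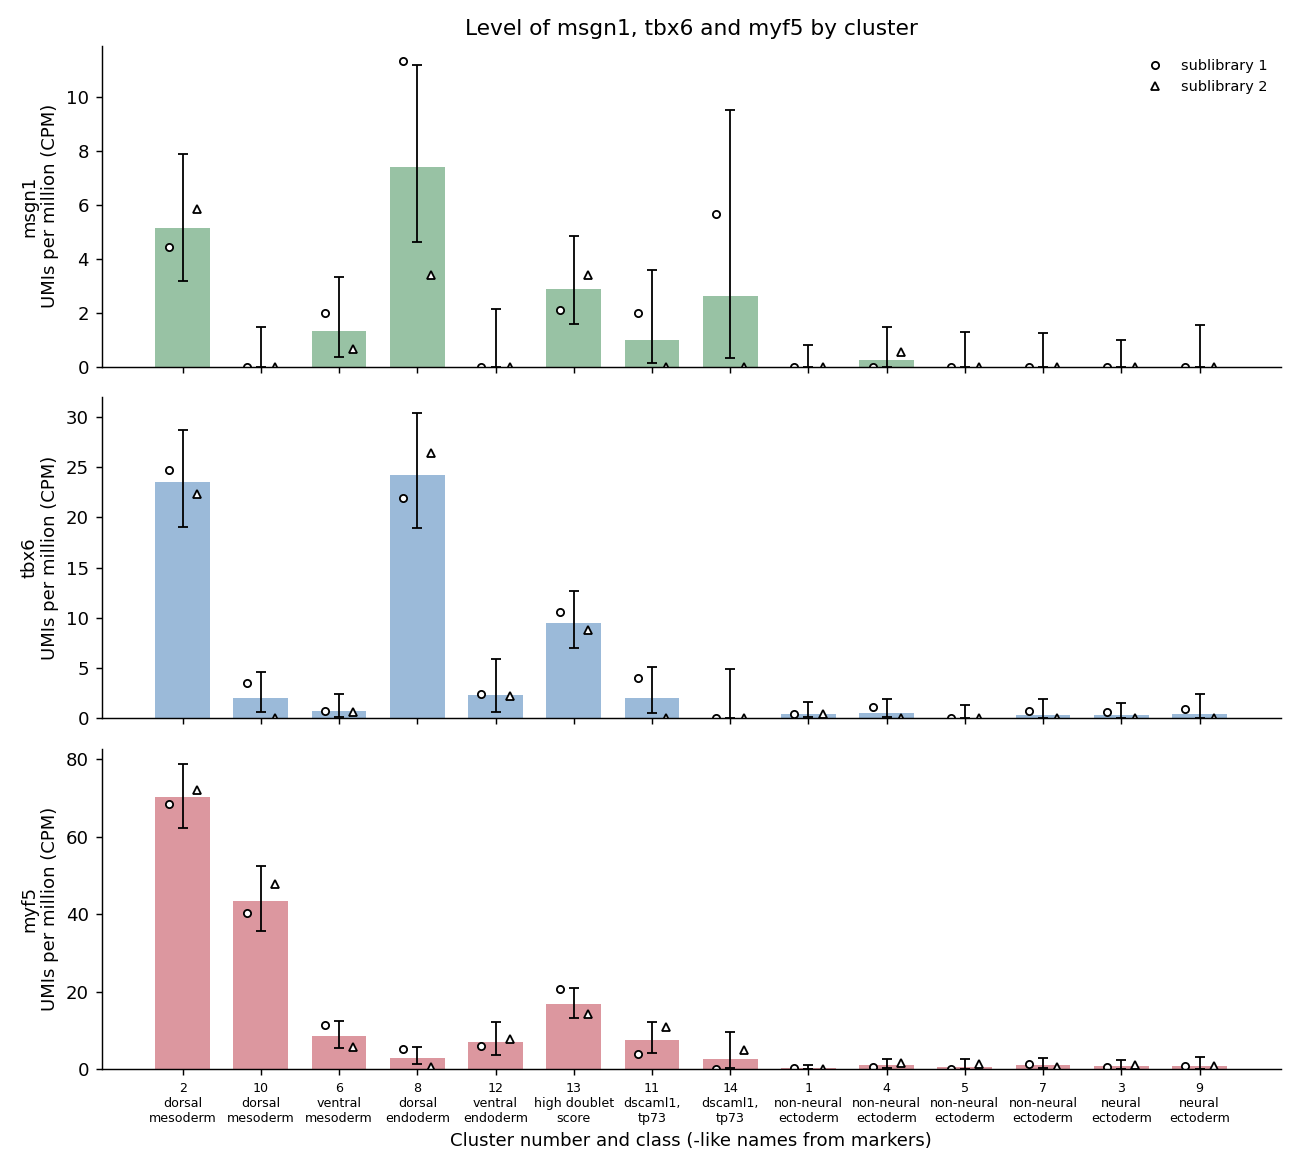
CPM of msgn1, tbx6 and myf5 (y axes) in 14 clusters (x axis, cluster number and class), with exact 95% Poisson intervals and the 2 sublibraries as points. Mesoderm-like clusters stand at the left, and all 3 genes are high in cluster 2, while cluster 10 is high in myf5 only and cluster 8 in msgn1 and tbx6 only.

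The 3 members were distributed differently over these clusters. In cluster 2 all 3 were on: myf5 had 286 UMIs (70.1 CPM, 62.2 to 78.7), tbx6 had 96 (23.5 CPM, 19.1 to 28.7) and msgn1 had 21 (5.15 CPM, 3.19 to 7.87). In cluster 10 only myf5 was high, with 110 UMIs (43.5 CPM, 35.7 to 52.4), while tbx6 had 5 UMIs (1.98 CPM) and msgn1 had 0 UMIs in 509 nuclei, where 3 counts would be 1.19 CPM. In cluster 8 the reverse was seen: tbx6 had 72 UMIs (24.2 CPM, 18.9 to 30.5) and msgn1 had 22 (7.39 CPM, 4.63 to 11.2), but myf5 only 9 (3.02 CPM, 1.38 to 5.74).

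Set side by side, tbx6 in cluster 2 was 0.973 times its level in cluster 8 (0.709 to 1.34), a difference within counting error, and 11.9 times its level in cluster 10 (4.93 to 37.5). For myf5, cluster 2 was 23.2-fold over cluster 8 (12 to 51.2) and 1.61-fold over cluster 10 (1.29 to 2.03). For msgn1, with 0 UMIs in cluster 10, the exact intervals put cluster 2 at least 3.23-fold and cluster 8 at least 4.66-fold over it. Its level in cluster 8 differed between sublibraries, with 11.3 CPM in sublibrary 1 and 3.39 CPM in sublibrary 2, so its rank among clusters 2 and 8 is not set by these counts (0.696-fold, 0.364 to 1.33).

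Ventral mesoderm-like cluster 6 stood low for all 3. It had 26 UMIs of myf5 (8.48 CPM, 5.54 to 12.4), 4 of msgn1 (1.31 CPM) and 2 of tbx6 (0.653 CPM), although 85.1% of its nuclei had tbxt. After clusters 2 and 10, the order of myf5 levels ran on through cluster 13 (16.8 CPM), cluster 6 (8.48 CPM), cluster 11 (7.43 CPM) and cluster 12 (6.91 CPM), and the last 3 had overlapping intervals. Cluster 13, of high doublet score, also had 46 UMIs of tbx6 (9.52 CPM) and 14 of msgn1 (2.90 CPM). Of all UMIs in clustered nuclei, it held 19.5% for tbx6, 21.2% for msgn1 and 14.6% for myf5. Its nuclei were deep, with a median of 9336.5 UMIs, and it also held 11.8% for tbxt, 15.5% for wnt8a and 13.5% for chrd.1. The part of depth in these shares was not tested. In the 6 ectoderm-like clusters together, myf5 had 15 UMIs (0.739 CPM), tbx6 7 (0.345 CPM) and msgn1 1 (0.0492 CPM). Of the rare members, 3 UMIs of myod1 were in cluster 2 and the mespb UMI was in cluster 8.

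Over mesoderm-like nuclei as a whole (clusters 2, 6 and 10, 1893 nuclei) and the 5788 other nuclei, myf5 had 43.6 and 4.10 CPM, a 10.7-fold ratio (8.75 to 13). The levels of tbx6 were 10.6 and 4.07 CPM, a 2.62-fold ratio (2.01 to 3.41), and those of msgn1 were 2.58 and 1.25 CPM, a 2.06-fold ratio (1.2 to 3.47). As log2 of (CPM + 1) these were 3.13 ± 0.028, 1.2 ± 0.090 and 0.67 ± 0.39 (SD over 2 sublibraries). All 3 were at least 2-fold higher in mesoderm-like nuclei, as were 3.10% of the 11268 genes with at least 50 UMIs. The other nuclei included clusters 8, 11, 12 and 13, in which 3, 6, 7 and 5 of 7 mesoderm markers were raised. With a minimum of 2000 genes, where no cluster was named dorsal mesoderm-like, the log2 ratio was -2.76 for tbx6 and 0.40 for myf5. At resolution 0.5, where none was so named either, it was 1.11 and 3.39, and the cause was not tested. On a list of T-box genes and signals that induce mesoderm, 15 of 23 genes tested were at least 2-fold higher in mesoderm-like nuclei, among them tbxt.2 (8.68-fold) and fgf8 (3.76-fold), and 1, the receptor gene fgfr4, was lower, as were 11% of all genes. The list shares wnt8a, rspo3 and cdx2 with the ventral mesoderm markers that named clusters. The calls of wnt8a (2.68-fold) and cdx2 (3.51-fold) are thus not independent of the names. Only the members were barred from building the clusters, so the other list genes could help to build them. Their calls cannot be taken as independent of the clusters either. Of 17 presomitic and segmentation genes 5 were higher and 3 lower, and of 7 muscle structure genes ttn (titin, 5.12-fold) was higher and 2 lower. Of 7 muscle regulators 0 were higher and 1, mef2c (0.301-fold), was lower, with a median fold of 1.03 against 0.967 over all genes. Of 7 partners or inhibitors of bHLH factors 0 were higher and 3, all inhibitors, were lower: id2 (0.183-fold), hes1 (0.270-fold) and hes4 (0.236-fold).

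The ventral over dorsal comparison changed with the clustering. With cluster 6 as ventral and clusters 2 and 10 as dorsal, the log2 ratios were -0.86 ± 0.92 for msgn1, -3.30 ± 0.061 for tbx6 and -2.68 ± 0.73 for myf5 (SD over 2 sublibraries). The small SD of tbx6 is no measure of its precision. That ratio rests on 2 UMIs in cluster 6 against 101 in clusters 2 and 10, a 0.0427-fold ratio (0.0051 to 0.158). The UMIs of msgn1 were 4 and 21, and those of myf5 26 and 396. Cluster 2, however, came apart at a finer resolution, where 405 of its 760 nuclei joined a ventral mesoderm-like cluster led by wnt8a, rspo3 and ttn, with 835 CPM of wnt8a and 283 CPM of chrd.1. A further 348 went to a dorsal mesoderm-like cluster led by shh and fgf16, with 76.8 CPM of wnt8a and 4734 CPM of chrd.1. Of the 21 msgn1 UMIs in cluster 2, 20 went with the wnt8a cluster and 1 with the shh cluster, while tbx6 split 43 and 53 and myf5 split 131 and 151. Of the 22 msgn1 UMIs in cluster 8, 16 also went to the wnt8a cluster, in 110 nuclei, as did 40 of its 72 tbx6 UMIs.

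In the wnt8a cluster of 527 nuclei so formed, and in the shh cluster of 357 nuclei, msgn1 had 36 and 1 UMIs, or 12.6 and 0.541 CPM, a 23.3-fold ratio (3.92 to 946). The levels of tbx6 were nearly equal, 29.8 and 28.7 CPM (1.04-fold, 0.728 to 1.49). Those of myf5 were 46.2 and 84.4 CPM, a 0.548-fold ratio (0.431 to 0.695). So within this pair msgn1 was on the wnt8a side, tbx6 on both and myf5 higher on the shh side. The other mesoderm-like clusters of that resolution kept only part of this pattern. Finer cluster 9, dorsal mesoderm-like with 52.5 CPM of shh, had 0 UMIs of msgn1, 2.52 CPM of tbx6 and 44.4 CPM of myf5. Finer clusters 11 and 16, both ventral mesoderm-like, had 241 and 167 CPM of wnt8a. They held 3 and 1 UMIs of msgn1 and 2 and 0 UMIs of tbx6, and less myf5 than either dorsal cluster. These finer clusters were described after the data had been seen, and under them the log2 ventral over dorsal ratio of msgn1 turned to 2.66 and that of tbx6 to 0.0021.

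To leave clusters out altogether, the 3054 nuclei with at least 2 UMIs of tbxt were split by at least 2 UMIs of wnt8a and of chrd.1, also a choice made after the data had been seen. Among ectoderm-like nuclei, 4.51% passed the tbxt gate, 0.775% that of wnt8a and 2.08% that of chrd.1. The gene msgn1 followed wnt8a: it had 45 UMIs (8.67 CPM, 6.32 to 11.6) in 746 nuclei with wnt8a alone and 20 UMIs (3.66 CPM) in 243 nuclei with both genes. With chrd.1 alone it had 4 UMIs (0.679 CPM) in 767 nuclei, and with neither it had 5 (0.664 CPM) in 1298 nuclei. Between wnt8a alone and chrd.1 alone the ratio was 12.8-fold (4.65 to 48.8), and it was 14.6-fold without nuclei above the doublet threshold. The nuclei with neither gene were thus low in msgn1 although each had tbxt.

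**Figure D3:**
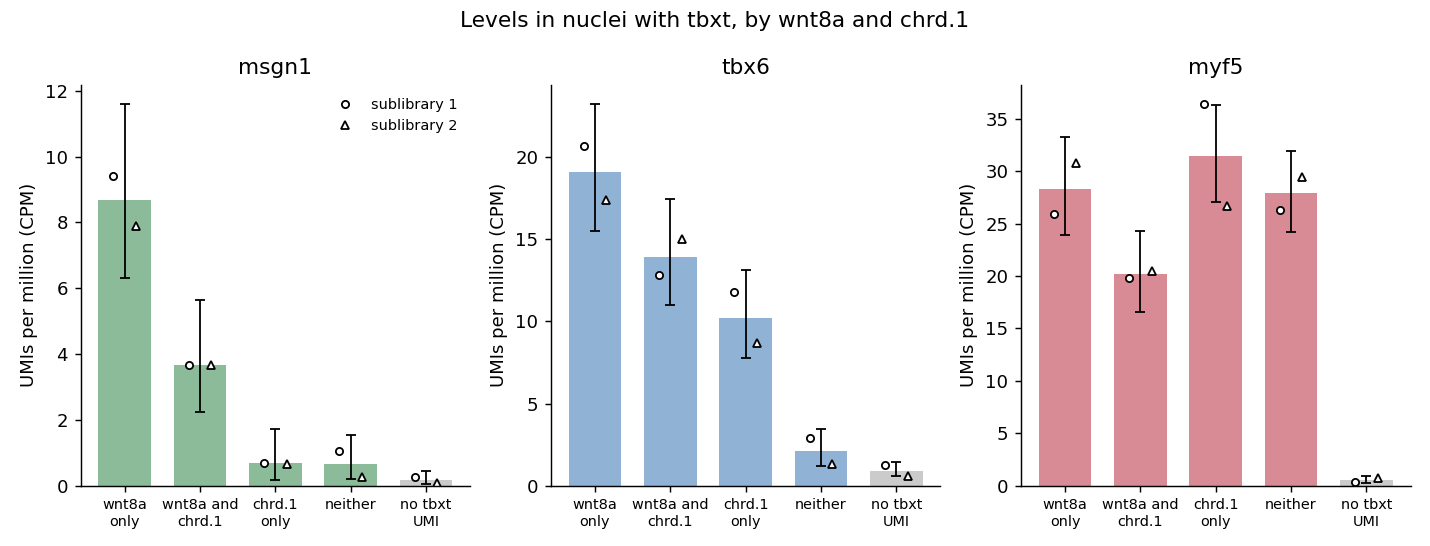
CPM of msgn1, tbx6 and myf5 (y axes) in nuclei with at least 2 tbxt UMIs, split by wnt8a and chrd.1 (x axis), and at the right in nuclei with no tbxt UMI, with exact 95% Poisson intervals and the 2 sublibraries as points. The level of msgn1 falls off without wnt8a, tbx6 is low with neither wnt8a nor chrd.1 and in nuclei with no tbxt, and myf5 is at 20.1 to 31.4 CPM in all 4 sets with tbxt.

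Unlike msgn1, tbx6 was found with either gene. It had 99 UMIs (19.1 CPM, 15.5 to 23.2) with wnt8a alone, 76 (13.9 CPM, 11 to 17.4) with both and 60 (10.2 CPM, 7.78 to 13.1) with chrd.1 alone, against 16 (2.12 CPM, 1.21 to 3.45) with neither. The ratio of chrd.1 alone to neither was 4.80-fold (2.73 to 8.93) and that of wnt8a alone to neither 8.98-fold (5.26 to 16.3). Between wnt8a alone and chrd.1 alone it was 1.87-fold (1.34 to 2.62).

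For myf5 the 4 sets lay closer together. Its levels were 28.3 CPM (23.9 to 33.3) with wnt8a alone, 20.1 CPM (16.6 to 24.3) with both, 31.4 CPM (27.1 to 36.3) with chrd.1 alone and 27.9 CPM (24.2 to 31.9) with neither. Between wnt8a alone and chrd.1 alone the ratio was 0.901-fold (0.721 to 1.13), and between wnt8a alone and neither 1.02-fold (0.817 to 1.26), while nuclei with both genes were 0.723-fold of those with neither (0.569 to 0.915). Nuclei with both genes had a median of 13095 UMIs, and 28.0% of them were above the doublet threshold, against 13.9% to 16.0% in the other 3 sets. Without nuclei above that threshold, the ratio of myf5 between nuclei with both genes and those with neither was 0.695-fold (0.525 to 0.914). The part of doublets that score below the threshold was not tested.

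The next question was which members share nuclei. Of the 8474 nuclei, 576 had UMIs of 1 member, 76 of 2 and 5 of 3. The pair seen together most was tbx6 and myf5, in 55 nuclei. Counts were thinned to 2500 UMIs per nucleus, a depth that every nucleus reached, so that deep nuclei would not count more. Thinned, myf5 was found in 12 of 81 nuclei with tbx6 (14.8%, 7.90 to 24.4) and in 2.68% of nuclei without it (2.35 to 3.05). With all UMIs it was found in 25.8% of nuclei with tbx6 and in 4.90% of those without.

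For tbx6 and msgn1 the excess was of similar kind on fewer nuclei. Thinned, tbx6 was in 4 of 21 nuclei with msgn1 (19.0%, 5.45 to 41.9) and in 0.911% of nuclei without it (0.720 to 1.14), and with all UMIs in 17 of 65 (26.2%) and 2.33%. For msgn1 and myf5 it was not detectable at the thinned depth. There myf5 was in 1 of 21 nuclei with msgn1 (4.76%, 0.120 to 23.8) and in 2.79% of nuclei without it, while with all UMIs it was in 15 of 65 (23.1%, 13.5 to 35.2) and 5.29%. Just 4 nuclei had all of msgn1, tbx6 and myf5.

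**Figure D4:**
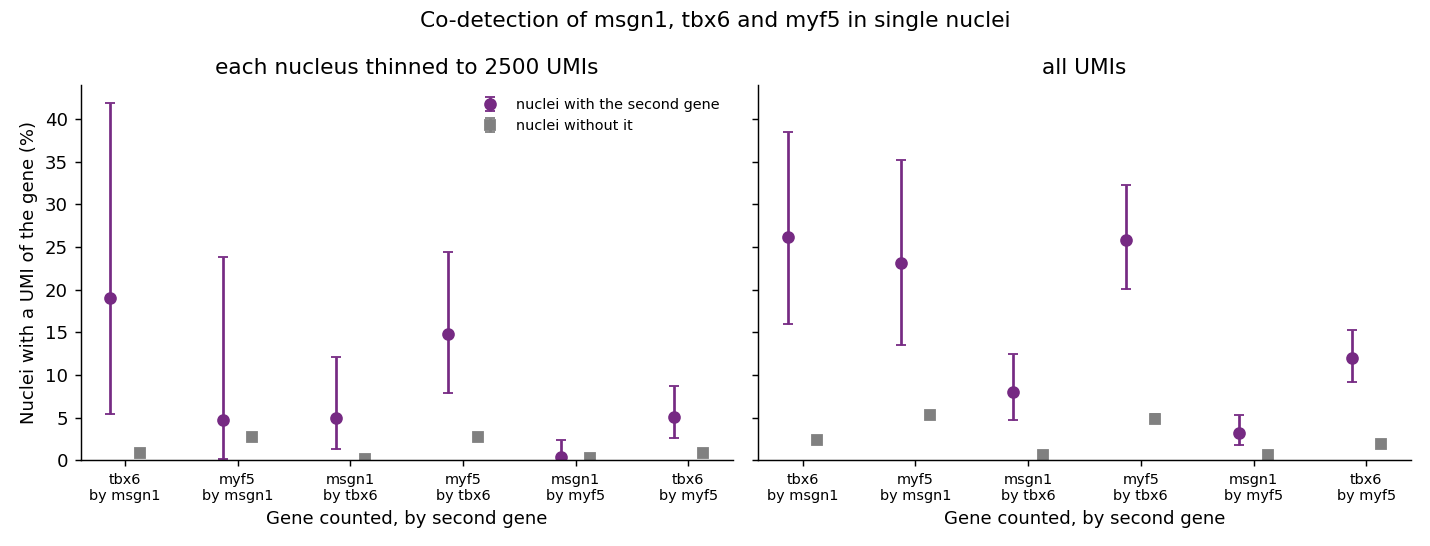
Share of nuclei with a UMI of 1 member (y axis, %) among nuclei with and without a UMI of a second member (x axis, pairs), thinned to 2500 UMIs at the left and with all UMIs at the right, with exact 95% binomial intervals. The share is higher in nuclei with the second gene for tbx6 with msgn1 and for tbx6 with myf5, while msgn1 with myf5 cannot be told apart from the rest when thinned.

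Since nuclei of 1 cluster share many genes, the pairs were also counted inside clusters, with all UMIs. Within cluster 2, tbx6 was found in 28 of 183 nuclei with myf5 (15.3%, 10.4 to 21.3) and in 42 of 577 without it (7.28%, 5.3 to 9.71). Within cluster 8, msgn1 was found in 7 of 54 nuclei with tbx6 (13%, 5.37 to 24.9) and in 6 of 502 without it (1.2%, 0.440 to 2.58). Within cluster 2 the shares of msgn1 were 3 of 70 with tbx6 (4.29%) and 16 of 690 without it (2.32%), with intervals that overlapped. These shares were not thinned. Cluster 8 was itself mixed: its 110 nuclei that joined the wnt8a cluster at the finer resolution held 8 of its 13 nuclei with msgn1. They also held 27 of its 54 nuclei with tbx6. The part of this mixture in the excess was not tested.

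Nuclei with a member were then set against nuclei without it across the genes of 5 lists: T-box genes and signals that induce mesoderm, presomitic and segmentation genes, muscle regulators, muscle structure, and partners or inhibitors of bHLH factors. Genes counted as higher where their CPM was at least 2-fold higher. The 3 comparisons share most of their negative nuclei, so they are not independent. Positive nuclei were deeper, with medians of 6673 UMIs for msgn1, 5795 for tbx6 and 5426.5 for myf5, against 4649, 4634 and 4622 without the gene. They also lay above the doublet threshold more often, in 20%, 16.4% and 19.6% of nuclei against 9.36% of all nuclei. Of the 7681 clustered nuclei, 4128 were ectoderm-like, and nearly all of these lacked the members. Some list genes were low there, such as ttn, at 2654 CPM in cluster 2 and 31.6 CPM in ectoderm-like nuclei. How far cluster make-up sets the folds below was not tested.

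Among inducing genes and signals, 6 of 23 tested were higher in nuclei with myf5, 5 with tbx6 and 5 with msgn1, where 1.33%, 2.65% and 4.51% of all genes tested were higher. No gene of the list was at least 2-fold lower with any of the 3 when all nuclei were used, against 2.53%, 5.01% and 9.66% of all genes. The zinc finger gene sp5, a target of Wnt signals, was higher with all 3: 3.49-fold with myf5 (2.23 to 5.34), 2.20-fold with tbx6 (1.13 to 3.95) and 3.60-fold with msgn1 (1.52 to 7.36, on 8 UMIs). The median fold of the list was 1.51, 1.42 and 1.31, against 0.992, 0.967 and 0.975 over all genes. The T-box gene tbxt.2 had 105.5 CPM in nuclei with myf5 and 17.7 CPM without (5.96-fold, 5.33 to 6.65), and it was 2.74-fold in nuclei with tbx6 but 0.841-fold (0.537 to 1.26) with msgn1. Of the FGF ligands that were higher with myf5, fgf4 was 4.00-fold (3.45 to 4.63), fgf20 2.62-fold and fgf8 2.03-fold. With tbx6 and msgn1, fgf8 was 1.18-fold and 1.16-fold, while fgf3 was 2.34-fold with msgn1 on 3 UMIs (0.470 to 7.18). The ligand gene wnt8a was higher with the other pair, at 3.32-fold (3.01 to 3.66) with msgn1, 3.05-fold (2.85 to 3.26) with tbx6 and 1.69-fold (1.58 to 1.80) with myf5. The Wnt amplifier gene rspo3 was 2.70-fold with msgn1, 3.10-fold with tbx6 and 1.56-fold with myf5. The ligand gene wnt3a was counted as higher with msgn1 and tbx6, but on 4 and 8 UMIs, with intervals that included 1.

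Of the presomitic and segmentation genes, 4 of 17 were higher with myf5, 5 with tbx6 and 4 with msgn1, with median folds of 1.21, 1.31 and 1.25. Of all genes tested, 1.33%, 2.65% and 4.51% were higher. Of the 17, nrarp alone was lower with msgn1 (0.390-fold on 5 UMIs), as were 9.66% of all genes. The forkhead genes foxc1 and foxc2, needed for somites in mouse, had the largest folds of the list with tbx6. In nuclei with tbx6, foxc2 was 21.1 CPM, against 4.77 CPM without (4.41-fold, 3.27 to 5.88), and foxc1 was 3.55-fold (3.12 to 4.04). They were 3.25-fold and 2.88-fold with msgn1, and 1.83-fold and 2.07-fold with myf5. The enzyme gene aldh1a2, which makes retinoic acid, was 2.87-fold with tbx6, 2.23-fold with msgn1 and 2.07-fold with myf5. The segmentation gene mespa was 2.69-fold with tbx6 (1.48 to 4.58), on 16 UMIs in positive nuclei, and 3.01-fold with msgn1 on 7 UMIs (1.18 to 6.41). Counts differed widely within this list. In all nuclei the Notch pathway genes dll1, lfng and dlc had 20615, 14990 and 8183 UMIs and the clock genes hes7.2 and hes7.1 had 2271 and 115, while the somite genes meox2, ripply2.2, ripply2.1 and tcf15 had 18, 13, 8 and 6.

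**Figure D5:**
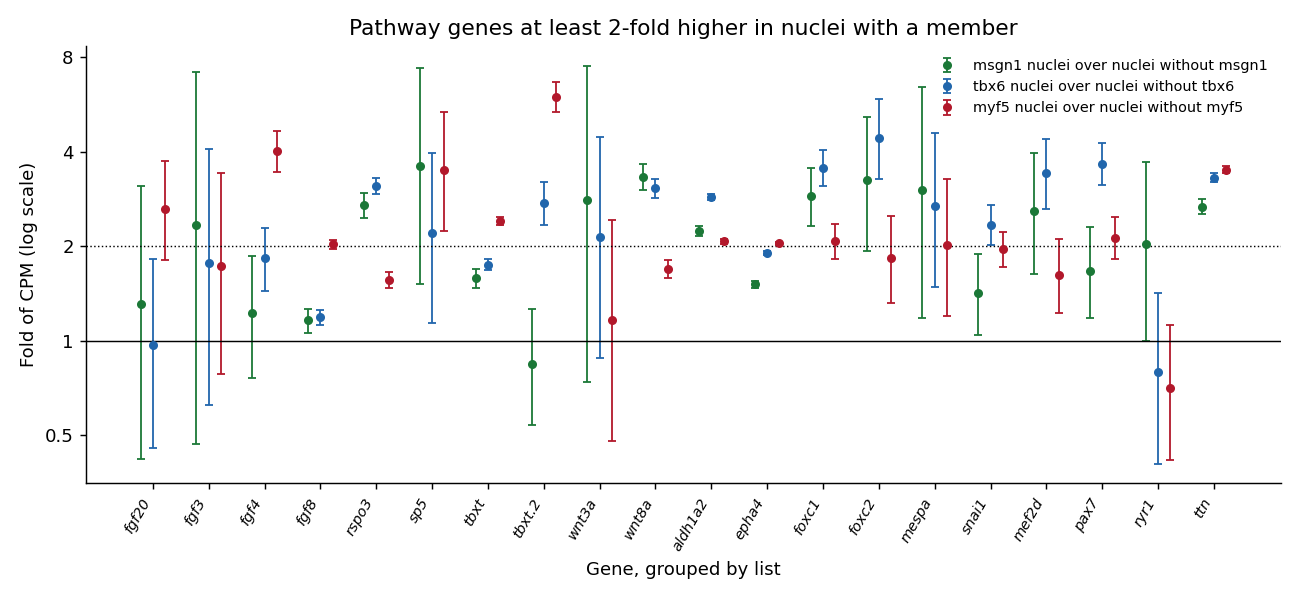
Fold of CPM (y axis, log scale) of the 20 list genes that were at least 2-fold higher in nuclei with msgn1, tbx6 or myf5 over nuclei without that member, with exact 95% intervals for counting error. The solid line marks a fold of 1 and the dotted line a fold of 2, and tbxt.2 stands highest for myf5, sp5 and wnt8a for msgn1 and foxc2 for tbx6.

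Few muscle regulators and structural genes were counted well enough to compare. Of all genes tested, 1.33% were at least 2-fold higher with myf5, 2.65% with tbx6 and 4.51% with msgn1, while 2.53%, 5.01% and 9.66% were lower. Of 7 regulators tested, 1 was higher with myf5, 2 with tbx6 and 1 with msgn1: pax7, a gene of muscle stem cells and the neural crest, was 2.12-fold with myf5 and 3.66-fold with tbx6, and mef2d, a partner of the muscle bHLH factors, was 3.41-fold with tbx6 and 2.60-fold with msgn1. Downstream of myf5 and myod1, myog had 2 UMIs and myf6 5 UMIs in all nuclei. Of 7 structural genes, ttn alone was higher with myf5, at 1404 and 401 CPM in nuclei with and without it (3.50-fold, 3.41 to 3.60). It was 3.30-fold with tbx6 and 2.67-fold with msgn1, where ryr1 was also 2.03-fold on 11 UMIs and tpm2 had 0 UMIs. The sarcomeric actin gene actc1 had 19 UMIs in all nuclei and acta1 had 0. With all nuclei used, 0 of 7 partners or inhibitors of bHLH factors were at least 2-fold higher or lower with any of the 3 members. For 7 genes this is near the shares over all genes, so it does not set the list apart. The E protein gene tcf12 was 1.34-fold with myf5.

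The nuclei with myf5 and no tbx6 (405) were also compared directly with those with tbx6 and no myf5 (158), which were of similar depth (medians of 5276 and 5422.5 UMIs). Of 6693 genes tested, 0.911% were at least 2-fold higher and 1.37% at least 2-fold lower in the myf5 nuclei. The genes with the largest folds were rab23 (2.40-fold), tbxt.2 (2.38-fold), fgf4 (2.35-fold), tpbg (2.26-fold) and the posterior homeobox gene cdx2 (2.21-fold). Those with the smallest were ebf3, at 27.1 CPM in myf5 nuclei and 131 CPM in tbx6 nuclei (0.207-fold, 0.164 to 0.261), the endoderm gene gata5 (0.260-fold), tdrd7 (0.305-fold), the Wnt amplifier rspo2 (0.308-fold) and nfib (0.309-fold). Each of these was higher in dorsal endoderm-like cluster 8 than in cluster 2, such as ebf3 (278 and 42.4 CPM) and tdrd7 (626 and 346 CPM). Cluster 8 held 72 UMIs of tbx6 but 9 of myf5. The part of cluster make-up in these folds was not tested. Of the lists, 4 of 19 inducing genes were higher and 2 lower: fgf8 was 2.05-fold, while wnt8a was 0.465-fold (0.419 to 0.516) and rspo3 0.416-fold. Both foxc1 (0.495-fold) and foxc2 (0.344-fold), and mef2d (0.393-fold), were lower in the myf5 nuclei.

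Across all genes, the largest folds in nuclei with myf5 were those of tbxt.2, fgf4, LOC101732592 (3.90-fold), the collagen-modifying enzyme gene plod2 (3.63-fold) and the syndecan gene sdc3 (3.61-fold). In nuclei with tbx6 they were foxc2, sdc3 (4.37-fold), the netrin gene ntn3 (4.06-fold), chchd10 (3.98-fold) and pax7. In nuclei with msgn1 they were the metalloprotease gene mmp3 (4.62-fold), nid1 (4.38-fold), card9 (4.36-fold), tbc1d5 (3.84-fold) and slc38a8 (3.71-fold), each on 16 to 66 UMIs. Of these, nid1, slc38a8, chchd10 and pax7 also lead cluster 13. Without that cluster and without nuclei above the doublet threshold, a choice made after the data had been seen, nid1 had 2 UMIs in nuclei with msgn1 and tbc1d5 had 1, with ratios of 1.69 (0.203 to 6.19) and 1.21 (0.0304 to 6.86), whereas mmp3 was 10.1-fold (5.3 to 17.7). For the 10 leading genes of myf5 and tbx6 the ratios were larger there, such as 10.6-fold for tbxt.2 with myf5 and 9.76-fold for foxc2 with tbx6, but pax7 with myf5 was 1.58-fold. The counts over lists moved too: of the inducing genes and signals, 12 were then higher with myf5, 9 with tbx6 and 8 with msgn1, and of the presomitic genes 7, 6 and 6, as were 4.94%, 8.01% and 11.8% of all genes. Lower calls appeared as well: of the inducing genes 1, 1 and 4 were then at least 2-fold lower with myf5, tbx6 and msgn1, and of the presomitic genes 3, 3 and 5, as were 14.6%, 21.2% and 34.2% of all genes. The minimum of UMIs was not applied again to these fewer nuclei. The lower calls with msgn1 thus include sparse genes with a ratio of 0, such as fgf20, cdx1 and hes7.1. Of the partners or inhibitors of bHLH factors, 2 were then lower with each of the 3 members, such as hes4 (0.256-fold with myf5), and 1, mdfic, was higher with msgn1 (2.61-fold).

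Likeness of pattern was measured by Pearson's r of log2(CPM + 1) over the 14 clusters of at least 20 nuclei, as a description. The clusters share their libraries and were built from genes such as these, and no p is given. Most like myf5 were tbxt.2 (r = 0.93), pdzrn3 (0.92), prr18 (0.91), LOC100488690 (0.90) and tbxt (0.90). Most like tbx6 were tcaf1 (0.97), fam107a (0.97), foxc2 (0.96), LOC100158459 (0.95) and retreg1 (0.95). Most like msgn1 were p4ha2 (0.91), gata3 (0.89), foxc2 (0.88), grin2c (0.87) and ercc1 (0.86). The r values of msgn1 are the least sure. They rest on 66 UMIs in clustered nuclei, against 236 of tbx6 and 556 of myf5, and many clusters had 0 UMIs. In cluster 8, its highest, msgn1 had 11.3 and 3.39 CPM in the 2 sublibraries. Between members r was 0.78 for msgn1 and tbx6, 0.65 for tbx6 and myf5 and 0.46 for msgn1 and myf5. The gene foxc2 was thus among the 5 nearest to both tbx6 and msgn1, with 20.6 CPM in cluster 2 and 32.6 CPM in cluster 8, against 1.58 CPM in cluster 10.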

How the data were processed

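The 2 samples, sublibraries 1 and 2 of 1 pool, formed 1 group. The authors ran the Parse pipeline on the UCB_Xtro_10.0 assembly. The deposited counts are UMIs for each barcode and gene, unfiltered and not normalised, beside a deposited barcode table with counts of genes, transcripts and reads. The submitters' processing notes name Seurat and Scanpy 1.9.6.

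Barcodes with at least 1500 genes were kept, which gave fewer nuclei than the study states for the same minimum, for a reason that was not found. Scrublet (scanpy 1.11.5) was run per sublibrary, and 793 nuclei with scores above 0.15 were removed, while its automatic thresholds called 870. Of the remaining counts, 2000 variable genes without the members gave 30 principal components, 15 neighbours and Leiden clusters (leidenalg 0.10.2, resolution 1). To be named, a cluster needed 3 raised markers, 20 nuclei and a median doublet score up to 0.1. Clusters at least 4-fold over the others in dscaml1 and tp73 were left unnamed, a rule set after marker scores were seen. CPM are summed counts per 1000000, log2 ratios use CPM + 1, and fold intervals are exact conditional binomial intervals (scipy 1.17.1). List genes needed 50 UMIs in the nuclei compared and ranked genes 200. These minimums were not applied again after cluster 13 and nuclei above the doublet threshold were left out. Named genes were the members, the list genes and, per member, the 5 nearest in pattern and the 5 of largest fold. The fold calls were tested on simulated data. Alternatives were other minimums of genes, doublet handling, resolutions, variable genes, pseudocounts and gates. Gene spans are RefSeq's. Members and lists were chosen with earlier results of these data known.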

Additional observations from a re-analysis of the deposited data

Results flagged for a closer look

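Members were also found in barcodes that no comparison between sets of nuclei used, those with under 1000 genes, above the 3 counts that a count of 0 would allow. These barcodes held 280 UMIs of myf5, 90 of tbx6, 25 of msgn1 and 5 of myod1, while mespb had 0 UMIs there. For myod1 the 5 UMIs (0.278 CPM, 0.0903 to 0.649) exceeded the 4 in nuclei (0.0776 CPM, 0.0211 to 0.199), though the intervals overlapped. No outlier test applied, as there are only 2 sublibraries.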

How the results depend on the processing

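Values here are log2 ratios of CPM + 1. Of 78 alternative values, 39 stayed within the spread between sublibraries, 31 moved by more and 8 changed sign. The cause was not tested. The 39 include every value with a sublibrary left out. Those values set the spread itself, so they could hardly move beyond it. For the tbxt gate, the ratio of msgn1 was 1.79 with at least 2 tbxt UMIs, 1.68 with a minimum of 1000 genes and 1.71 without doublets, and those of tbx6 and myf5 stayed within the spread. For mesoderm-like over other nuclei, msgn1 was 1.58 without doublet removal, 1.58 at resolution 2, 1.86 with 4000 variable genes and 1.72 with the members allowed among them. The ratio of tbx6 was 1.81, 2.1, 2.47 and 2.25 under the same settings in that order, 0.80 with a minimum of 1000 genes, -2.76 with 2000, 1.37 with a pseudocount of 0.1 and 1.50 without the cluster of high doublet score. That of myf5 was 2.54 without doublet removal, 3.39 at resolution 0.5, 2.85 with 4000 variable genes, 2.93 with the members allowed, 3.71 with a minimum of 1000 genes, 0.40 with 2000, 3.38 with a pseudocount of 0.1 and 3.94 without that cluster.

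For ventral over dorsal mesoderm-like nuclei, msgn1 changed sign at resolution 2 (2.66), with 4000 variable genes (2.44), with the members allowed (2.62) and when gated by tbxt, wnt8a and chrd.1 (2.53). Under those settings tbx6 was 0.0021, -0.45, 0.46 and 0.84, and myf5 was -1.03, -1.67, -0.84 and -0.15. In addition, tbx6 was -2.60 with a minimum of 1000 genes, -3.75 without doublet removal and -4.35 with a pseudocount of 0.1, and myf5 was -1.89 without doublet removal. No such ratio could be had with a minimum of 2000 genes or at resolution 0.5, where no cluster was named dorsal mesoderm-like.

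With each sublibrary left out, the ratios ranged over 0.40 to 0.95 (msgn1), 1.13 to 1.26 (tbx6) and 3.11 to 3.15 (myf5) for mesoderm-like nuclei, over -1.56 to -0.26, -3.34 to -3.25 and -3.26 to -2.22 for ventral over dorsal, and over 1.60 to 1.66, 2.25 to 2.63 and 3.83 to 4.15 for the tbxt gate. No paired analysis was possible because there is only 1 group. The counts of mespb and myod1, 1 and 4 UMIs, allow only a statement of detection. The part of depth, or of the gene models used for counting, in these low counts was not tested.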
